A study of Mus musculus with 4 samples.

Results

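In regulatory T cells (Treg) with floxed Pdpk1, 60 named genes had a level 2-fold or more below that in Treg with intact Pdpk1. They were chosen from the deposited log2 table by value: the mean of the 2 WT libraries exceeded the mean of the 2 KO libraries by 1 or more, both KO values lay below both WT values, and the WT mean was 5 or more. Of 28334 rows, 11348 had a WT mean of 5 or more and 84 of these (0.74%) met the 3 conditions. Of the 84, 24 were set aside by name: 10 predicted genes of the Gm series, 5 RIKEN clones or pseudogenes, 4 chemokine receptor and heat shock genes, and 5 single genes (Gpr15, Cd38, Cd160, Tnfsf14 and Bcl6). The other 60 were 0.582% of the 10314 rows that passed the same name filter and level. The difference between genotypes is therefore how these genes were found, and its size is given below as a description, without a test.

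Treg that carried CD4 and YFP were sorted from untreated C57BL/6 mice, with spleen and peripheral lymph nodes as the source, and their poly-A RNA was sequenced. All mice were hemizygous for Foxp3 YFP-Cre/0, in which the X-linked Foxp3 locus drives a YFP-tagged Cre recombinase from a single copy. The 2 WT libraries came from Pdpk1 +/+ mice and the 2 KO libraries from Pdpk1 FL/FL mice, so Cre is present in both groups and the floxed gene in KO alone. Age, the number of animals behind a library and reads per library are not given in the sources used here, so p-values measure only the spread between these libraries, which may be technical. Over the 13685 tested genes, whose linear value was 10 or more in at least 2 libraries, the library medians were 8.77 (WT) and 8.8 (KO) on the log2 scale. The 7 Treg markers on the list used here (Foxp3, Il2ra, Ikzf2, Ctla4, Cd4, Cd3e and Tnfrsf18) lay between 10.41 and 13.26 in every library. Pdpk1 itself was at 11.71 and 11.76 in WT 1 and WT 2 and at 11.78 and 11.73 in KO 1 and KO 2, and Foxp3 at 11.42 and 11.38 in WT and 11.42 and 11.47 in KO. Which Pdpk1 exons are floxed is not given in the sources used here, and a gene-level value also holds reads of the other exons, so it does not check the deletion.

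PDK1, the product of Pdpk1, phosphorylates the activation loop of kinases of the AGC family, among them AKT, SGK, S6K and several forms of protein kinase C. AKT in turn keeps FOXO transcription factors out of the nucleus, and FOXO factors bind promoters through a forkhead motif. In Treg this signalling downstream of the T cell receptor, CD28 and the IL-2 receptor is known to tune metabolism, migration and the balance between resting and effector states.

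Most of the 60 genes had low values in WT. Their WT means ran from 5.03 to 10.59 on the deposited log2 scale with a median of 6.50, against 8.77 for the tested genes. Of the 60, 42 (70%) had a WT mean under 7, compared with 12.8% of the rows with the same name filter and level. Per kilobase of annotated exon, the linear WT value had a median of 19.6 over the 60 genes and 111 over the tested genes with a length, and Foxp3 stood at 590. Only Nrn1, Rpph1, Gpr55 and Slc15a2 were above that median of 111 on the same scale. The KO minus WT differences ran from -1.81 to -1.0 with a median of -1.18, which is 3.49-fold to 2-fold lower with a median of 2.26-fold. The median over all tested genes was 0.015. In 5 genes the level was at least 3-fold lower, and in 13 at least 2.5-fold lower.

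Within a group, values of most of these genes lay closer together than between groups, but their median spread exceeded that of the tested genes. The median SD of the 2 libraries was 0.081 in WT and 0.064 in KO over the 60 genes, and 0.035 and 0.042 over the tested genes. The lower of the WT values exceeded the higher of the KO values by 1.08 at the median. This gap was 1 or more in 39 genes and under 0.5 in 1, Nrgn. The 2 WT values differed by over 0.4 in 8 genes and the 2 KO values in 4. KO 1 was the lower KO library in 27 genes and KO 2 in 29. In a limma fit over all 13685 genes, 20.3% were called lower in KO and 27.1% higher at a Benjamini-Hochberg adjusted p under 0.05, 47.4% in all. Both KO values lay below both WT values in 30.4% of the 10314 rows that passed the name filter and level. In the limma fit 57 of the 60 genes were called, and Slc15a2, Nrgn and Rpph1, which had wide spreads within a group, were not. No weight attaches to that count, since the same contrast chose the genes. The calls rest on 2 libraries a group: with any 1 of the 4 libraries left out, limma called 0 of the 13685 genes at an adjusted p under 0.05, with 5225 to 5669 genes at an unadjusted p under 0.05.

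**Figure D1:**
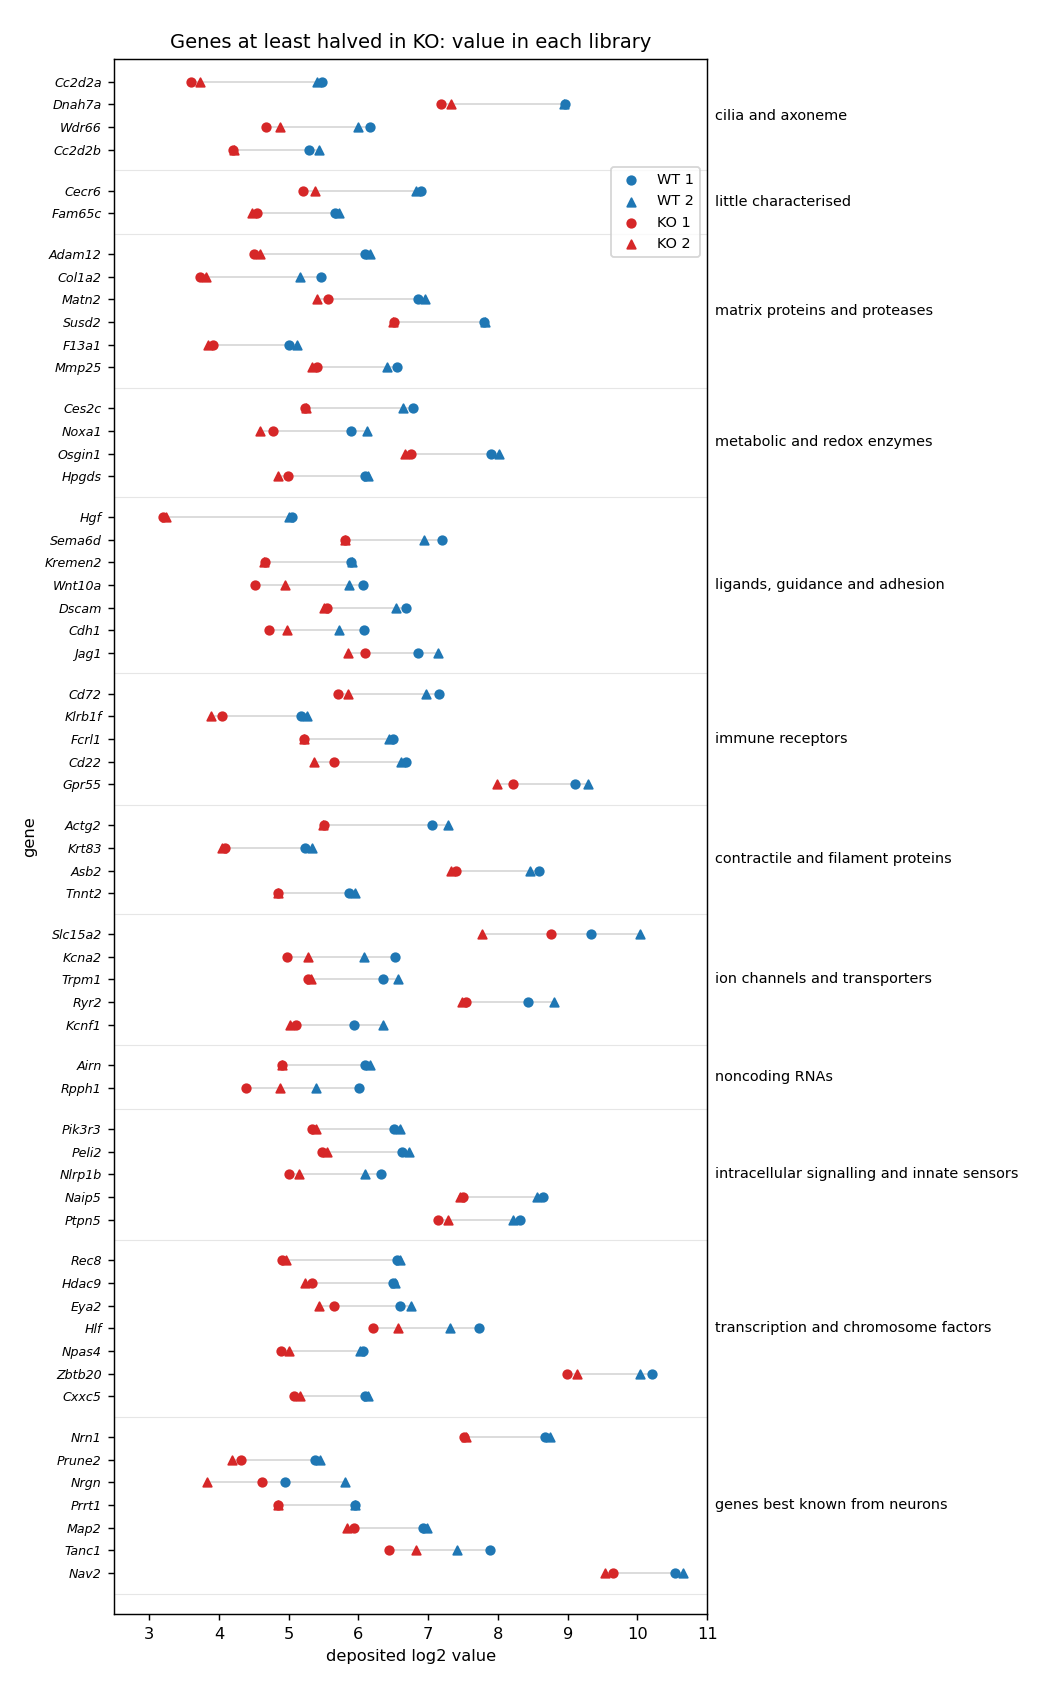
Deposited log2 value (x axis) of 58 of the 60 genes (y axis, grouped by function) in WT 1, WT 2 (blue) and KO 1, KO 2 (red), with circles for replicate 1 and triangles for replicate 2; the grey line spans the 4 values. Blue and red points do not overlap in any row, because the rule required it, and the narrowest gap is that of Nrgn (0.32).

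**Figure D2:**
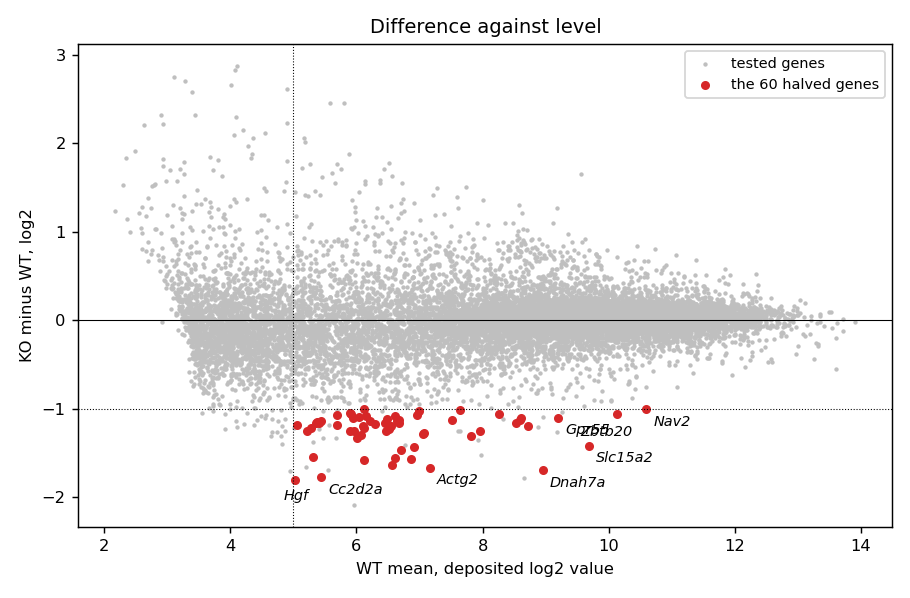
KO minus WT difference (y axis, log2) against the WT mean (x axis, deposited log2 value) for the 13685 tested genes (grey) and the 60 halved genes (red). Dotted lines mark the limits of -1 and 5; most red points lie between WT means of 5 and 7, and Nav2 and Zbtb20 are the only 2 above 10.

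The values below are deposited log2 values, given for replicate 1 and then replicate 2 of each group, and a value in parentheses is the KO minus WT difference unless it is named as a p. They are not divided by gene length, so they compare libraries and not genes. The grouping by function was made from known roles once the names were known. Counts of genes called by limma below stand beside 20.3% called lower and 27.1% called higher over all tested genes. Whether strand was used in counting is not given in the sources used here, so reads of overlapping genes on opposite strands may be mixed, and 17 of the 60 genes share exon sequence with an annotated antisense gene.

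Among secreted ligands and adhesion proteins, Hgf had the largest difference of the 60. It encodes hepatocyte growth factor, a ligand of the receptor MET that drives epithelial growth and movement, and lies on the plus strand of chromosome 5 (mm10, 16553495 to 16620152). Its values were 5.04 and 5.01 in WT and 3.20 and 3.24 in KO, a difference of -1.81. The pairs within each group were nearly equal, and both KO values lay far below both WT values. The WT mean of Hgf, 5.03, was the lowest of the 60 and just above the limit of 5. With a pseudocount of 10 its difference was -1.14, smaller than that of Dnah7a (-1.63). After quantile normalization Hgf no longer met the rule. The 250 bases before the annotated start of Hgf (RefSeq, GRCm38.p6, chr5:16553245-16553494, plus strand) are shown because they hold the forkhead motif GTAAACA. It is given in capitals, 24 to 18 bases before the start. This motif was in 3.45% of the promoter windows of halved genes and in 2.58% of those of all tested genes.
Hgf: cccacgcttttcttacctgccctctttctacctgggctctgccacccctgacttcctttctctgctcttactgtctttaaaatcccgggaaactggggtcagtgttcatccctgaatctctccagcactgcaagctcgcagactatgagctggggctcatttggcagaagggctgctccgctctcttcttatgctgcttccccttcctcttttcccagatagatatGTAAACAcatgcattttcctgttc

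Sema6d, a transmembrane semaphorin that guides axons and binds plexins, was at 7.20 and 6.94 in WT and 5.80 and 5.80 in KO (-1.27). Kremen2, a receptor that with Dickkopf proteins removes Wnt co-receptors from the surface, was at 5.89 and 5.90 in WT and 4.66 and 4.64 in KO (-1.25). Wnt10a, a secreted Wnt ligand, was at 6.07 and 5.87 in WT and 4.51 and 4.94 in KO (-1.25). Of the 3 other tested Wnt genes, limma called 0, and 0 had an unadjusted p under 0.05, with differences of -0.49 (Wnt3), -0.20 (Wnt2b) and 0.18 (Wnt10b). Kremen1, the relative of Kremen2, was lower by a small amount (-0.14, adjusted p = 0.0198 in limma). Dscam, a homophilic adhesion molecule of neurons, was at 6.68 and 6.54 in WT and 5.55 and 5.50 in KO (-1.09). Cdh1 (E-cadherin), the adhesion molecule of epithelia that is also a ligand of the inhibitory receptor KLRG1, was at 6.08 and 5.72 in WT and 4.72 and 4.98 in KO (-1.05). The WT values of Cdh1 differed by 0.36, more than those of Hgf or Kremen2. Jag1, a ligand of Notch receptors, differed between genotypes by -1.03.

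Notch genes allow the ligand to be set beside its pathway. Of 17 tested genes of the Notch list other than Jag1, 4 were called lower and 0 higher by limma, with a median difference of 0.03 over the 17. The 4 were the ligand Jag2 (-0.58, adjusted p = 0.0118 in limma), the target Hey1 (-0.94, 0.0104) and the Deltex genes Dtx1 (-0.91, 0.0127) and Dtx4 (-0.95, 0.0115). Dtx1 was at 10.13 and 9.94 in WT and 9.0 and 9.26 in KO, so the groups were apart. The receptor Notch1 was at 12.18 and 12.12 in WT and 12.13 and 12.23 in KO. The shares, 23.5% lower and 0% higher, stand beside 20.3% and 27.1% of all tested genes. Of the semaphorin, plexin and ephrin list without Sema6d, 9 of 25 genes (36%) were called lower and 4 (16%) higher, with a median of -0.08. Those of smallest p were the semaphorin receptor Plxnc1 (-0.27, adjusted p = 0.00855 in limma), Sema3d (0.52, 0.0104) and Sema4b (-0.15, 0.0105).

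The matrix genes and proteases held 6 of the 60. Adam12 (minus strand of chromosome 7, 133883199 to 134232146), a membrane metalloprotease that sheds growth factors, was at 6.09 and 6.16 in WT and 4.50 and 4.59 in KO (-1.58). Mmp25, a membrane-anchored matrix metalloprotease best known from neutrophils, was at 6.55 and 6.41 in WT and 5.41 and 5.33 in KO (-1.11). Neither gene had a WT or KO pair that differed by more than 0.14. Matn2, a matrilin that forms filaments in the extracellular matrix, was at 6.86 and 6.96 in WT and 5.56 and 5.40 in KO (-1.43). F13a1, the catalytic chain of the transglutaminase that crosslinks fibrin, was at 5.0 and 5.12 in WT and 3.92 and 3.84 in KO (-1.18). Susd2, a sushi-domain surface protein, was at 7.80 and 7.82 in WT and 6.51 and 6.50 in KO (-1.31). Of these, Susd2 had nearly equal values within each group. Col1a2, a chain of type I collagen, was at 5.46 and 5.16 in WT and 3.73 and 3.81 in KO (-1.54).

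Collagen is a marker of stromal cells, and 2 further collagen genes are on the marker list. Col1a1 was at 6.34 and 6.01 in WT and 5.31 and 5.55 in KO (-0.75, adjusted p = 0.0319 in limma). Col3a1, below the level for testing, was at 4.87 and 2.74 in WT and 0.86 and 2.48 in KO, with the highest value in WT 1. The stromal marker Pdgfra lay between 0.17 and 0.39 and Pdpn between -0.83 and -0.47 in all 4 libraries. Summed over the 10 listed stromal and endothelial genes in the table, the linear value was 2679 and 2527 in WT and 2506 and 2658 in KO, nearly all of it from Pecam1, which T cells also express. Without Pecam1 the other 9 summed to 175 and 125 in WT and 70.3 and 83.7 in KO. Without Col1a2 as well, the other 8 summed to 131 and 89.6 in WT and 57.0 and 69.7 in KO. Col1a1 was the largest part of that sum in each library, so the lower sum is not a fall of every marker. Pdgfrb was at 2.42 and 2.10 in WT and 2.17 and 2.47 in KO, and Acta2 and Pdpn overlapped between the groups too. Cdh5, Pdgfra, Myh11 and Col3a1, all below the level for testing, were lower in both KO libraries. The part of stromal RNA in the Col1a2 difference was not tested. In a bulk library, fewer cells of a type and less RNA per cell cannot be told apart.

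Proteases and matrix proteins outside the 60 went both ways. Of 12 other tested genes on the ADAM and matrix protease list, 4 (33.3%) were called lower and 3 (25%) higher. Adamts6, a secreted metalloprotease, was lower by limma (-0.36, adjusted p = 0.00608), as was the gelatinase Mmp9 (-0.88, 0.00732), and Adam15 (-0.32, 0.00941). Of 12 other matrix genes, 1 (8.33%) was called lower and 4 (33.3%) higher. The laminin chain gene Lama5 was at 9.47 and 9.66 in WT and 11.34 and 11.10 in KO (1.66, limma adjusted p = 0.00608), higher in both KO libraries. Another laminin chain gene, Lamc1, and the secreted matrix gene Ecm1 were higher too (0.63 and 0.51, adjusted p = 0.00434 and 0.00597 in limma).

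The immune receptors among the 60 included 3 that are best known from B cells. Cd72 (minus strand of chromosome 4, 43446462 to 43454628), a C-type lectin that restrains B cell receptor signalling, was at 7.15 and 6.97 in WT and 5.71 and 5.85 in KO (-1.28). Cd22, a sialic acid-binding inhibitory receptor, was at 6.68 and 6.61 in WT and 5.65 and 5.36 in KO (-1.14). Fcrl1, an Fc receptor-like protein, was at 6.49 and 6.44 in WT and 5.22 and 5.22 in KO (-1.25). Cd22 had the widest KO pair of the 3. Cd72 shares exon sequence with the antisense gene Tesk1, which was at 8.90 and 8.86 in WT and 8.56 and 8.63 in KO (-0.29).

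Markers of B cells were present at low values and shifted less. Of 8 listed genes, 6 were tested, and 1 was called lower and 0 higher, with a median of -0.38. Cd79a, a chain of the B cell receptor complex, was at 6.20 and 6.11 in WT and 5.61 and 5.46 in KO (-0.62, adjusted p = 0.0119 in limma). Cd79b was at 7.62 and 7.66 in WT and 7.63 and 7.56 in KO. The values of Ms4a1, Pax5 and Blk were highest in WT 1, and those of Ms4a1 and Blk overlapped between the groups. The summed linear value of the 8 genes was 433 and 378 in WT and 336 and 333 in KO. The part of B cell RNA in the differences of Cd72, Cd22 and Fcrl1 was not tested.

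Klrb1f, a C-type lectin receptor of the natural killer gene complex, was at 5.17 and 5.26 in WT and 4.04 and 3.88 in KO (-1.26). Its relative Klrb1c was lower too (-1.05, adjusted p = 0.00989 in limma), at 4.19 and 4.34 in WT and 3.34 and 3.09 in KO, and Klrb1b was at 3.59 and 3.41 in WT and 3.38 and 3.48 in KO. These genes are similar in sequence and can share reads. The natural killer marker Ncr1 lay between 2.36 and 3.09, and the marker list had 1 of 5 tested genes called lower, Klrb1c itself. Of 12 other tested cytotoxic and natural killer-type genes, 3 were called lower and 3 higher, and those of smallest p were the granzyme genes Gzma and Gzmk, both higher (2.46 and 1.26, adjusted p = 0.00434 and 0.0103 in limma), and the receptor Klrg1, which was lower (-0.48, 0.00545). Gpr55, a receptor for lysophosphatidylinositol, was at 9.11 and 9.29 in WT and 8.21 and 7.98 in KO (-1.11). Over all listed markers of cells other than Treg, 8 of 34 tested genes (23.5%) were called lower and 1 (2.94%) higher, against 20.3% and 27.1% of all tested genes. The calls among these markers were thus mostly lower, and their part in the differences of the 60 genes was not tested.

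Among genes for transcription and chromosome factors, Rec8 had the largest difference. Rec8 (plus strand of chromosome 14, 55618037 to 55625395), the kleisin subunit of meiotic cohesin, was at 6.55 and 6.59 in WT and 4.90 and 4.96 in KO (-1.64). The mitotic kleisin Rad21 was at 12.05 and 12.04 in WT and 12.22 and 12.21 in KO (0.17, adjusted p = 0.00642 in limma), and the core subunit Smc3 was higher too (0.18, 0.00608). Of 15 other tested genes of cohesin and its regulators, 8 (53.3%) were called higher and 1 (6.67%) lower. The lower gene was the loader Mau2 (-0.08, adjusted p = 0.0183 in limma), and the subunits Stag1 and Stag2 were among the 6 not called. The smallest p among the 15 was that of Sgol1, which protects centromeric cohesin in dividing cells (1.02, limma adjusted p = 0.00573).

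Hdac9, a class IIa histone deacetylase, was at 6.49 and 6.53 in WT and 5.33 and 5.24 in KO (-1.23). Of the 10 other tested Hdac genes, 2 were called lower by limma, Hdac10 (-0.38, adjusted p = 0.0101) and Hdac11 (-0.70, 0.00653), and 1 higher, Hdac7 (0.16, 0.0114), which is of the same class as Hdac9.

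Eya2, a phosphatase and coactivator of homeobox factors, was at 6.59 and 6.75 in WT and 5.65 and 5.43 in KO (-1.13). Hlf, a PAR-bZIP factor known from blood stem cells and the clock, was at 7.73 and 7.31 in WT and 6.21 and 6.57 in KO (-1.13), with pairs that differed by 0.42 and 0.36 within groups. Zbtb20, a BTB zinc finger repressor, was at 10.21 and 10.04 in WT and 8.99 and 9.14 in KO (-1.06). Both KO libraries lay about a log2 unit below WT. Of 36 other tested Zbtb genes, 11 were called lower and 5 higher, and the smallest p was that of Zbtb32, which was higher (0.81, adjusted p = 0.00434 in limma). Cxxc5, a CXXC zinc finger protein, differed by -1.0, exactly at the limit.

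Npas4, a bHLH-PAS factor induced by calcium entry in neurons, was at 6.06 and 6.02 in WT and 4.89 and 5.0 in KO (-1.10). The 250 bases before its start (RefSeq, GRCm38.p6, chr19:4989972-4990221, minus strand) are shown because they hold the cyclic AMP response motif TGACGTC at 2 places, once on each strand. The capitals mark it from 181 to 175 bases before the start, where the printed strand reads GACGTCA, and from 169 to 163. The motif was in 3.45% of the promoter windows of halved genes and in 5.46% of those of all tested genes.
Npas4: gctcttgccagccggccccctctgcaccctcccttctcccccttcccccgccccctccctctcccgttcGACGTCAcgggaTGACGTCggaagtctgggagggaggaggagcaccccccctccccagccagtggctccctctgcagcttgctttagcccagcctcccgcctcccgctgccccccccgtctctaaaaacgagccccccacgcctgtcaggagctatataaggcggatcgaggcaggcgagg

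The intracellular signalling genes included a component of PI3K, the kinase that makes the lipid PDK1 binds. Pik3r3 (plus strand of chromosome 4, 116221618 to 116303056), the p55γ regulatory subunit, was at 6.51 and 6.60 in WT and 5.34 and 5.39 in KO (-1.19). Of the other 4 tested Pik3r genes, 1 was called. Pik3r5 was higher (0.36, adjusted p = 0.00855 in limma), and Pik3r1, the main regulatory subunit, was at 12.15 and 12.21 in WT and 12.09 and 12.05 in KO (-0.11, adjusted p = 0.0521). Ptpn5, a tyrosine phosphatase that acts on ERK and Fyn in neurons, was at 8.31 and 8.22 in WT and 7.14 and 7.28 in KO (-1.06).

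Genes of innate sensors came with close copies in the table. Naip5 (minus strand of chromosome 13, 100211739 to 100246323), which detects bacterial flagellin for the NLRC4 inflammasome, was at 8.64 and 8.56 in WT and 7.50 and 7.45 in KO (-1.13). Its close copy Naip6, also a flagellin sensor, was at 8.56 and 8.56 in WT and 7.61 and 7.55 in KO (-0.98, adjusted p = 0.00434 in limma) and missed the limit by 0.02. Reads of these copies can be exchanged, so their values may not be independent. Naip2 was lower to a lesser degree (-0.45, limma adjusted p = 0.00521). Nlrp1b, the sensor cleaved by anthrax lethal factor, was at 6.32 and 6.10 in WT and 5.01 and 5.14 in KO (-1.14), and its copy Nlrp1a differed by -0.57 (limma adjusted p = 0.0153). Both tested Naip relatives and 1 of 2 tested Nlrp relatives were thus called lower.

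Peli2, a Pellino E3 ubiquitin ligase of Toll-like receptor signalling, was at 6.62 and 6.73 in WT and 5.47 and 5.55 in KO (-1.17). Peli1, at 12.03 and 11.98 in WT and 12.04 and 12.07 in KO, was not called (adjusted p = 0.184 in limma). The 250 bases before the start of Peli2 (RefSeq, GRCm38.p6, chr14:48120619-48120868, plus strand) are shown for comparison with Hgf, since they hold the same forkhead motif on the other strand. It reads TGTTTAC, in capitals, 117 to 111 bases before the start, in a sequence far richer in G and C.
Peli2: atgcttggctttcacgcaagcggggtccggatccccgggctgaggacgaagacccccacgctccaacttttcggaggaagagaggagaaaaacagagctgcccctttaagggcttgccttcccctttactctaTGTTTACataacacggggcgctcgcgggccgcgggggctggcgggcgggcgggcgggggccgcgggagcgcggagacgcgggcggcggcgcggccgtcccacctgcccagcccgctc

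Of the 6 ion channel and transporter genes, 1 had the widest pair of all 60. Slc15a2 (minus strand of chromosome 16, 36750177 to 36784962), a proton-coupled peptide transporter that also carries bacterial muropeptides, was at 9.33 and 10.03 in WT and 8.76 and 7.77 in KO (-1.42). The WT values differed by 0.70 and the KO values by 0.99, while the groups were 0.57 apart. Without KO 2 the difference was -0.92 and without KO 1 it was -1.91. Its relative Slc15a3 was higher in KO by limma (0.60, adjusted p = 0.0483).

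Ryr2, a calcium release channel of the endoplasmic reticulum known from heart muscle, was at 8.43 and 8.80 in WT and 7.54 and 7.48 in KO (-1.11). Ryr1 and Ryr3 were not called (0.10 and 0.29, adjusted p = 0.393 and 0.210 in limma). Kcna2, a voltage-gated potassium channel, was at 6.52 and 6.08 in WT and 4.98 and 5.28 in KO (-1.17). The related Kcna3, the main voltage-gated potassium channel of T cells, was lower by a smaller amount (-0.33, limma adjusted p = 0.00642). Kcnf1, a silent potassium channel subunit, was at 5.94 and 6.35 in WT and 5.11 and 5.02 in KO (-1.08). Trpm1, a cation channel of retina and melanocytes, was at 6.35 and 6.57 in WT and 5.28 and 5.32 in KO (-1.16). In Kcna2, Kcnf1 and Ryr2 the WT values differed by 0.37 to 0.44.

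Genes for cilia and the axoneme, the microtubule core of cilia, made up 4 of the 60, though T cells are not known to carry motile cilia. Dnah7a (minus strand of chromosome 1, 53397006 to 53706784), an inner-arm dynein heavy chain, was at 8.96 and 8.94 in WT and 7.18 and 7.33 in KO (-1.70). The pairs were close, and its near copies Dnah7b and Dnah7c lay between 0.28 and 0.81 in all libraries. Of the 6 other tested axonemal dynein genes, 2 were called lower and 1 higher. Dnah12 was the higher 1 (1.06, adjusted p = 0.00573 in limma), Dnah17 and Dnah11 were lower (-0.40 and -0.73, adjusted p = 0.0116 and 0.00708), and Dnah8, at 10.92 and 11.15 in WT and 10.87 and 10.78 in KO, was not called (adjusted p = 0.150).

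Cc2d2a, a protein of the transition zone at the base of cilia, was at 5.47 and 5.41 in WT and 3.60 and 3.73 in KO (-1.78). Its paralog Cc2d2b was at 5.29 and 5.43 in WT and 4.20 and 4.21 in KO (-1.16). The paralogs lie on chromosomes 5 and 19, and both were among the 60. The more distant Cc2d1a and Cc2d1b differed by -0.04 and 0.08. Wdr66, a radial spoke-associated protein of cilia and sperm, was at 6.16 and 5.99 in WT and 4.67 and 4.88 in KO (-1.30).

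Contractile and filament genes were a further 4. Actg2 (minus strand of chromosome 6, 83512905 to 83536265), the enteric smooth muscle actin, was at 7.05 and 7.28 in WT and 5.50 and 5.49 in KO (-1.67). The cytoplasmic actins that T cells use were slightly higher, Actb by 0.09 and Actg1 by 0.08 (adjusted p = 0.0373 and 0.0419 in limma). The smooth muscle genes Acta2 and Myh11 were low, at 1.76 to 2.08 and 1.14 to 1.65. Of 11 other tested genes of the actin and contractile list, 6 (54.5%) were called higher and 1 (9.09%) lower. Those of smallest p were Tpm4, Vcl and Tagln2 (0.21, 0.36 and 0.26, adjusted p = 0.00595, 0.00869 and 0.0112 in limma). Tnnt2, cardiac troponin T, was at 5.87 and 5.95 in WT and 4.85 and 4.85 in KO (-1.06). Krt83, a hair keratin, was at 5.24 and 5.33 in WT and 4.09 and 4.04 in KO (-1.22). Asb2, the subunit of a ubiquitin ligase that directs filamins to degradation, was at 8.59 and 8.46 in WT and 7.40 and 7.33 in KO (-1.16), and the groups of all 4 genes stood well apart.

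The metabolic and redox enzymes were close within each group. Ces2c (plus strand of chromosome 8, 104847068 to 104854483), a carboxylesterase that hydrolyses esters and lipids, was at 6.78 and 6.64 in WT and 5.23 and 5.25 in KO (-1.47). It was the only tested carboxylesterase, since the other 8 in the table lay at or below 1.23. Osgin1, an oxidative stress-induced growth inhibitor, was at 7.90 and 8.02 in WT and 6.76 and 6.66 in KO (-1.25). Noxa1, an activator of the NADPH oxidase NOX1, was at 5.89 and 6.12 in WT and 4.77 and 4.59 in KO (-1.33). Hpgds, the hematopoietic synthase of prostaglandin D2, was at 6.09 and 6.13 in WT and 4.99 and 4.85 in KO (-1.19). Each of the 4 had pairs that differed by 0.23 or less.

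The genes best known from neurons numbered 7. Nrn1 (minus strand of chromosome 13, 36725361 to 36735131), which encodes the membrane-anchored neuritin that is also expressed by anergic and regulatory T cells, was at 8.68 and 8.75 in WT and 7.51 and 7.54 in KO (-1.19). Per kilobase of exon it had the highest WT value of the 60, at 187. Nrgn, which binds calmodulin, was at 4.94 and 5.81 in WT and 4.62 and 3.83 in KO (-1.15). Its pairs differed by 0.87 and 0.79, more than the groups were apart, and the difference was -0.72 without WT 2 and -1.59 without WT 1.

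Map2, a microtubule-associated protein of dendrites, was at 6.93 and 6.98 in WT and 5.93 and 5.84 in KO (-1.07), and of 8 relatives with the same name stem 4 were called higher and 1 lower. Map1a had the smallest p of these (1.09, adjusted p = 0.00846 in limma). Prune2 was at 5.38 and 5.45 in WT and 4.32 and 4.19 in KO (-1.16). Prrt1, a partner of AMPA receptors, was at 5.95 and 5.95 in WT and 4.84 and 4.85 in KO (-1.11), the closest pairs of this group. Tanc1, a postsynaptic scaffold, was at 7.89 and 7.41 in WT and 6.44 and 6.83 in KO (-1.02). Nav2, a protein that steers growing neurites, was at 10.54 and 10.65 in WT and 9.65 and 9.53 in KO (-1.01), just inside the limit.

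The noncoding RNAs among the 60 were Airn and Rpph1. Airn, the imprinted antisense transcript that starts inside Igf2r, was at 6.09 and 6.16 in WT and 4.91 and 4.91 in KO (-1.22). Igf2r was lower as well, at 11.87 and 11.85 in WT and 11.44 and 11.55 in KO (-0.37, adjusted p = 0.0105 in limma). The spans of the pair overlap on opposite strands, and Airn shares no annotated exon sequence with another gene. Rpph1, the RNA of RNase P, has no poly-A tail, is 319 bases long and shares sequence with an exon of Ccnb1ip1. Its values were 6.01 and 5.39 in WT and 4.38 and 4.88 in KO (-1.07), and the difference was -0.76 without WT 1. Little is known of the last pair, Cecr6 and Fam65c, which the annotation now calls Tmem121b and Ripor3. Cecr6 was at 6.89 and 6.83 in WT and 5.21 and 5.38 in KO (-1.57), and Fam65c at 5.66 and 5.72 in WT and 4.55 and 4.47 in KO (-1.18).

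Pathway lists that touch Treg homing and PDK1 signalling were set beside these genes. Of 12 tested genes for retinoic acid handling and response, 6 (50%) were called lower and 3 (25%) higher by limma, and the median was -0.16. Those of smallest p were the nuclear receptor Rxra (0.44, limma adjusted p = 0.00518), the retinoic acid-forming enzyme Aldh1a3 (0.68, 0.00762) and the receptor Rarg (-0.45, 0.00769), so receptors went both ways. Of 15 TGF-β responsive genes, 5 (33.3%) were called lower and 1 (6.67%), the integrin gene Itgae, higher, with a median of -0.15. Those of smallest p were Gpr15 (-1.79), a homing receptor set aside by name from the halved genes, the aryl hydrocarbon receptor gene Ahr (-0.63) and the integrin gene Itgb8 (-0.78), each with adjusted p = 0.00434 in limma. Of 19 FOXO genes and targets, 6 (31.6%) were called lower and 6 (31.6%) higher, with a median of 0.03. Il7r, the IL-7 receptor, and Trib1 were higher (0.53 and 0.69, adjusted p = 0.00434 for both in limma), and the stress response gene Sesn1 was lower (-0.50, 0.00524). Over all tested genes the shares were 20.3% lower and 27.1% higher. Members of the 60 stood on none of these 3 lists.

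**Figure D3:**
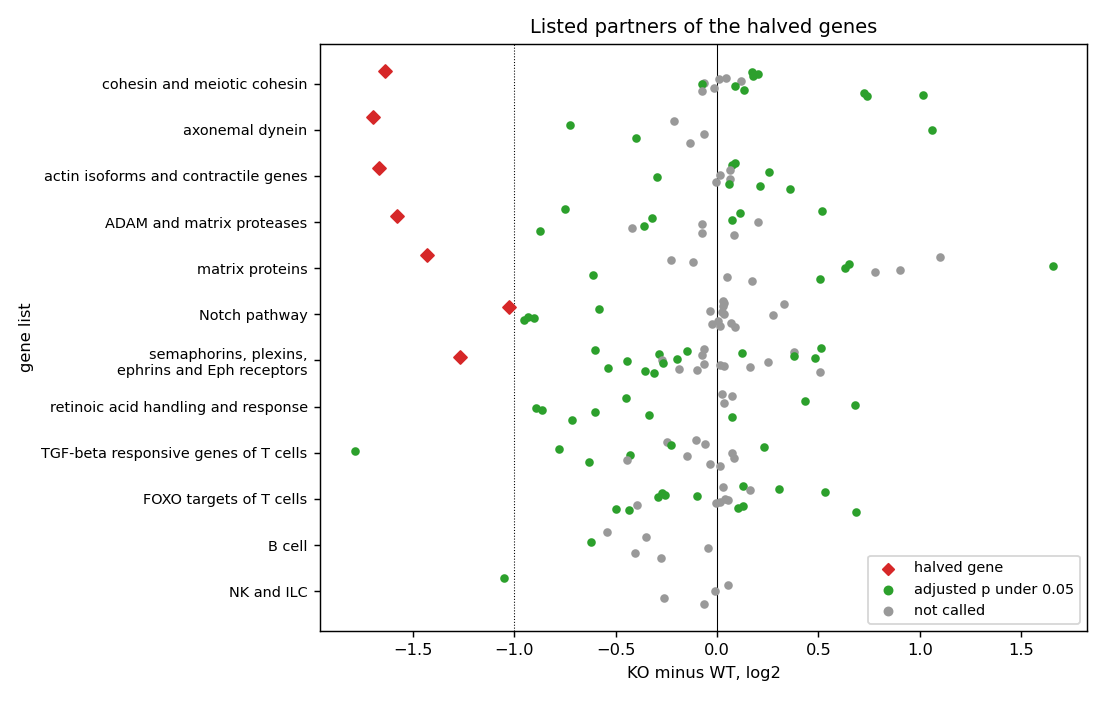
KO minus WT difference (x axis, log2) of each tested gene on 12 lists (y axis), with halved genes as red diamonds, other genes called by limma (adjusted p under 0.05) in green and genes not called in grey. Each red diamond is the lowest point of its list, which goes with the rule that chose these genes by their difference. In the Notch list it lies next to Dtx1, Dtx4 and Hey1.

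By name alone, 51 of the 60 genes had a stem that other genes could share, and 378 other tested genes shared 1. Of these relatives, 90 (23.8%) were called lower and 91 (24.1%) higher by limma, against 20.3% and 27.1% of all tested genes, with a median of 0. The pooled shares are thus near the background in both directions, but they rest largely on a few stems. The stem Fam, from Fam65c, gave 137 of the 378 relatives, with 26 called lower and 37 higher. Wdr, from Wdr66, gave 49, with 9 lower and 18 higher. A shared stem is a matter of naming and does not show that genes are related.

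In position the 60 genes were spread over the genome. They lay on all autosomes, from 1 gene each on chromosomes 9, 10 and 18 to 6 each on chromosomes 1 and 2, and 0 on the X chromosome, which holds 3.08% of the tested genes. There were 2 pairs of neighbours within 500 kb. Nrn1 and F13a1 lie 132 kb apart on chromosome 13, and Fars2, the only tested gene in or across that stretch, was at 8.31 and 8.40 in WT and 8.48 and 8.44 in KO and was not called (adjusted p = 0.131 in limma). Mmp25 and Kremen2 lie 95.9 kb apart on chromosome 17, with 6 other tested genes in or across the stretch. Of these 6, 0 were called lower and 2 higher, Thoc6 (0.33, limma adjusted p = 0.00667) and Tnfrsf12a (0.43, 0.0382), so lower values were not shared along the stretch.

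The genes were longer than most. Their median genomic span was 34.7 kb, against 20.1 kb for tested genes with a length, and 28.3% spanned over 100 kb, against 10.9%. Low level did not go with a longer span in the tested genes: those with a WT mean from 5 to under 7 had a median span of 13.5 kb, and 11.3% exceeded 100 kb. For the halved genes under the same level these values were 29.0 kb and 26.2%. The span was not used to choose the genes, and these shares are given as a description.

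RefSeq promoter windows, from 250 bases before to 50 after a start (GRCm38.p6), were found for 45 of the 60 genes, 58 windows in all, and compared with 12375 windows of tested genes. Each motif was read on both strands. The forkhead motif GTAAACA was in 2 of the 58 windows (3.45%) and in 2.58% of all windows. Hgf and Peli2 were the only cases. The GC box GGGCGG of KLF and SP factors was in 39.7% of the windows of halved genes and in 61.3% of all. The ETS motif CCGGAAG was in 5.17% and 17.7%. The NF-kB motif was in 10.3% and 5.58%, a count of 6 windows. The other motifs read were GTCTAG of SMAD factors, CACGTG of MYC, TGANTCA of AP-1, TNGCGTG of AHR, AGGTCA of ROR and RAR receptors, GGAAAA of NFAT, TGTGGTT of RUNX, CTTTGA of TCF and LEF factors, the core promoter motif TATAAA, and the STAT motif. Among these the shares lay between 1.72% and 17.2% in halved genes and between 3.83% and 20.4% in all windows.

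These windows also held fewer CpG dinucleotides, with a median of 2 per 100 bases against 6.67 over all windows, and a median G and C content of 54.5% against 60.7%. Part of this goes with level. Windows of tested genes with a WT mean from 5 to under 7 had a median of 5 CpG per 100 bases, the GC box in 53.1% and the ETS motif in 10.8%. The halved genes under a WT mean of 7 were at 2, 36.8% and 2.63% in 38 windows. A match in a window is a run of letters and does not show binding.

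**Figure D4:**
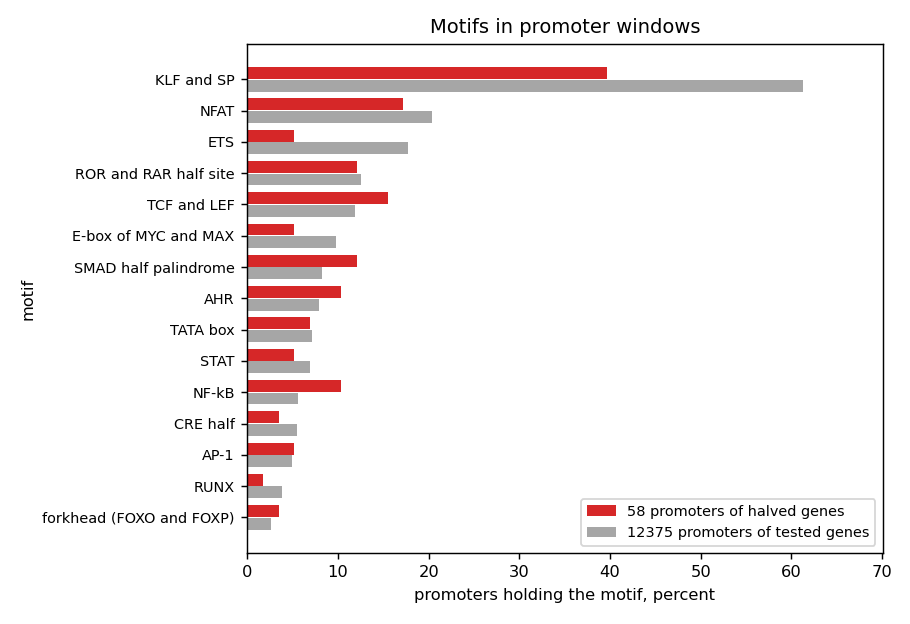
Share of promoter windows that hold each motif on either strand (x axis, percent) for the 58 windows of halved genes (red) and the 12375 windows of tested genes (grey). The GC box of KLF and SP factors (39.7% and 61.3%) and the ETS motif (5.17% and 17.7%) show the widest gaps, and the forkhead motif is at 3.45% and 2.58%.

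At the limit of the rule, the 5 genes just inside were Cdh1 (-1.05), Jag1 (-1.03), Tanc1 (-1.02), Nav2 (-1.01) and Cxxc5 (-1.0). The 5 just outside were Ampd1 and Ramp1 (both -0.995), Lzts1 and Naip6 (both -0.98) and Sh3pxd2a (-0.97). By level, Hgf, F13a1 and Klrb1f were the lowest inside, with WT means of 5.03, 5.06 and 5.22. Slc7a10, Sardh and Avpr1a, with WT means of 4.95, 4.87 and 4.82 and differences of -1.71, -1.25 and -1.19, were left out by level alone. Names on both sides of the limit thus differed by hundredths of a log2 unit.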

How the data were processed

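RNA of 2 WT and 2 KO Treg libraries was measured, and the authors deposited 1 table of 28334 rows of log2 normalized values. STAR, DESeq2 and mm10 are named in the submitters' processing notes, without versions, and counts or reads per library are not given in the sources used here, so the depth behind a value is unknown. Rows that share a symbol (19 symbols) and 23 date numbers were kept out of the 60 genes. The 13685 tested genes had a linear value (2 to the power of the deposited value) of at least 10 in at least 2 libraries. They were compared with limma 3.58.1 in R 4.3.3 (moderated variance with trend, no covariate, two-sided, Benjamini-Hochberg over all tested genes, threshold 0.05). The fit was run on simulated data with independent noise in each gene. Deviations shared across genes, as seen between these libraries, were not simulated, so that check does not vouch for the calls here. The members and lists were chosen with earlier results of these data known, and the functional groups after the names were seen.

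Values in each library are given for up to 6 genes of a group, those of largest difference, and for the 3 genes of highest WT value. Of name relatives and lists, called genes of smallest p are named, up to 3. Notch1, Dtx1, Pik3r1, Peli1, Actb, Dnah8, Ryr1, Ryr3, Klrb1b, Mau2, Stag1, Stag2, Wnt3, Wnt2b, Wnt10b and genes that overlap or neighbour a halved gene were named after their values were seen. A name relative shares the symbol without its last digits and letter, with a stem of at least 3 characters. Positions are from GENCODE on GRCm38, and promoters from RefSeq on GRCm38.p6, both matched by symbol. Alternatives tried were the replicate number as a term, each library left out, other scalings, filters, pseudocounts and limits. Planned features of the proteins were not analysed here, and 2 of the 60 genes and some other genes are not reported here singly.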

Additional observations from a re-analysis of the deposited data

How the results depend on the processing

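With the replicate number as a block, limma called 0 genes lower, 0 higher, 0 name relatives and 0 markers of other cells, and its smallest adjusted p was 0.0964, with 4881 genes at an unadjusted p under 0.05. Same-numbered libraries deviated in opposite directions (correlation -0.907 over the tested genes). The labels do not say whether the numbers pair the samples, and the values cannot settle it. With the pairing crossed, an alternative chosen after seeing the data, 4446 genes were called lower and 5282 higher. Leaving out each library in turn gave 0 calls in each of the 4 fits and each of these 4 counts, with a smallest adjusted p of 0.0817 to 0.0961. A linear value of at least 100 gave 1788 genes lower and 1 marker of other cells, against 2778 and 9, with fewer genes tested. The split of calls turned with the scaling: quantile normalization gave 3067 lower and 3029 higher, and median centring 3250 and 2983, against 2778 and 3703.

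The rule gave 31 genes with a pseudocount of 10, of which 30 are among the 60, whose median difference was then -1.001, and 19 under the stricter limit on the difference. Leaving out 1 library gave 64 to 67 genes, 53 to 54 of them among the 60. Of 420 single-gene differences under 7 alternatives, 350 were counted as moving by less than the spread between replicates and 70 as moving by more. Moves of equal size could fall on both sides of that limit. Sema6d, at -1.27 with all libraries, was counted among the 350 at -1.14 without WT 1. At -1.40 without WT 2 it was counted among the 70. Leaving out 1 library moves a difference only by part of the gap within its pair, so small moves there follow from the arithmetic. A wide pair also widens the limit: Slc15a2 counted among the 350 at -0.92 without KO 2, against -1.42 with all libraries. The count of 350 is thus no sign of stability. That none of the 420 changed sign follows from the rule and is no sign of stability either. The cause of these changes was not tested.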
